A study of Mus musculus with 20 samples.

Results

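The acute phase proteins described here are 10 plasma proteins whose mRNAs were followed in liver and kidney of mice given JQ1 or vehicle. The 10 genes were Saa1, Saa2, Orm1, Orm2, Hp, Hpx, Serpina3m, Serpina3n, Lcn2 and Itih4. They were taken by symbol from a list that was made with earlier results of these data known. They are 10 of the 55642 genes in the deposited files. All 10 symbols were found, and the estimated reads of a gene's transcripts were summed.

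Adult male DBA/2J mice, an inbred strain, had received JQ1 at 50 mg/kg by intraperitoneal injection each day over 3 weeks, or else vehicle alone. JQ1 occupies the bromodomains of the BET proteins, which read acetylated histones. Animals of the treatment time were 10 weeks old at the end of dosing, and animals of the recovery time were 16 weeks old, 6 weeks after the last dose. Each organ had 3 JQ1 treatment libraries, 3 JQ1 recovery libraries and 4 vehicle libraries, of which 3 were from the treatment time and 1 from the recovery time. These numbers and times follow the sample labels and the methods of the study, from which another passage of its supplement differs in the split of the vehicle animals and the length of recovery. The 4 vehicle libraries together were the control. Of these 4, 3 were thus younger than the recovery group, and age and recovery from JQ1 cannot be told apart in most of that comparison. Between the JQ1 treatment and JQ1 recovery groups, in either organ, they cannot be told apart at all. The labels do not state that the libraries of a group came from separate animals, so p-values measure the spread between these libraries, which may be technical, and they do not say whether a liver and a kidney library with the same number shared an animal.

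The acute phase response is a change in the proteins that the liver secretes during inflammation or injury. Interleukin 6, acting through STAT3, and interleukin 1, acting through NF-kB and C/EBP factors, reach hepatocytes in the blood and raise transcription of the positive acute phase genes, while glucocorticoids add to the effect. Serum amyloid A proteins can be induced far more strongly than haptoglobin or hemopexin, which are already abundant in healthy plasma, and in the mouse they serve as sensitive signs of systemic inflammation.

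The liver libraries held 11968500 to 17529910 reads and the kidney libraries 13952510 to 26895318. The 10 genes together took 0.228% to 0.777% of the reads of a liver library and at most 0.004% of those of a kidney library. Levels are given as read counts relative to library size, scaled between libraries by the TMM method (CPM). In this text a gene is called different where the quasi-likelihood test of edgeR gave an adjusted p (Benjamini-Hochberg) below 0.05 over all genes tested.

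Before the results, 2 liver libraries have to be set apart. JQ1 recovery replicates 2 and 3 of the liver carried mRNAs of the kidney. Over 15 kidney markers, the median level was 38.8% of the level in kidney in replicate 2 and 12.3% in replicate 3, against 0.039% in replicate 1 and at most 0.0179% in the other 7 livers. The summed level of the kidney markers was 6523 CPM in replicate 2, 3102 CPM in replicate 3 and 26.1 CPM in replicate 1, against 0.552 to 5.08 CPM in the other livers. The 15 hepatocyte markers were all detected in every liver, and their summed level was 44110 CPM in recovery replicate 2, 73760 CPM in replicate 3 and 80780 CPM in replicate 1, against 86720 to 94200 CPM in vehicle livers. The calls and log2 fold changes of the 10 genes in liver recovery, and the counts of the gene lists, are therefore also given without these libraries, or on a scale set by 282 liver-enriched genes (at least 10 CPM in vehicle liver and at least 50 times the kidney level, members left out), an alternative chosen after the data had been seen.

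The promoters shown are those of Saa1, Saa2 and Orm2, the genes with the widest spread among the vehicle livers. They were chosen after the values had been seen, and no result below rests on them. Saa1 (ENSMUSG00000074115) lies on chr7:46740497-46742980, minus strand, and Saa2 (ENSMUSG00000057465) on chr7:46751790-46754313, plus strand, so the genes stand head to head. Orm2 (ENSMUSG00000061540) lies on chr4:63362449-63365878, plus strand, next to Orm1 on chr4:63344560-63348163, plus strand. Gene positions are those of GENCODE M21 on GRCm38. The promoters are from RefSeq on GRCm38.p6, 250 bases before the start of the gene and 50 from it on, written 5′ to 3′ on the strand of the gene. The windows are chr7:46742931-46743230 (minus strand), chr7:46751583-46751882 (plus strand) and chr4:63362199-63362498 (plus strand). Capitals mark the matches to the C/EBP motif TTGCNNAA.
Saa1: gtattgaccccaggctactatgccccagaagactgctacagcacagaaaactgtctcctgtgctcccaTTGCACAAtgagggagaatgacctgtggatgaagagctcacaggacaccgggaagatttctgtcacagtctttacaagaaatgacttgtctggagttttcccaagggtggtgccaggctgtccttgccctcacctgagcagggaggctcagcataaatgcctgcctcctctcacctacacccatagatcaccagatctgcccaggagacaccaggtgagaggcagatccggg
Saa2: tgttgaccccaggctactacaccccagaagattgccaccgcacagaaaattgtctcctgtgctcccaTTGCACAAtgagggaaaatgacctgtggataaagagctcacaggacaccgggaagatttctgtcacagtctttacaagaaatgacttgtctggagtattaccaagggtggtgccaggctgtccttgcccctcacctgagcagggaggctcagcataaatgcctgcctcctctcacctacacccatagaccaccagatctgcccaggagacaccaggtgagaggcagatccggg
Orm2: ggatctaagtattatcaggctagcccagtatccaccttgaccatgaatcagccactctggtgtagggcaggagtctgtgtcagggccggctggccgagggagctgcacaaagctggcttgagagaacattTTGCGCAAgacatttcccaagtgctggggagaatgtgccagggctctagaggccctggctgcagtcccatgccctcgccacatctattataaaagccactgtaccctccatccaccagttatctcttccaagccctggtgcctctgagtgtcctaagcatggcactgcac

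The promoters of Saa1 and Saa2 were 95.3% identical (287 of 301 aligned columns), and 8352 bases lay between the windows. Both held the word TTGCACAA, from -182 to -175 in Saa1 and from -183 to -176 in Saa2, counted from the start of the gene. Orm2 held TTGCGCAA from -120 to -113. Promoters of 7 of the 10 genes were in the RefSeq table, all but those of Orm1, Hp and Serpina3m. On either strand 5 of the 7 (Saa1, Saa2, Orm2, Hpx and Lcn2) had a match to TTGCNNAA, which 10.8% of 32817 mouse promoters of this length hold. The STAT motif TTCNNNGAA was found in Itih4 alone (8.29% of all promoters), the NF-kB motif GGNNTTTCC in Serpina3n alone (5.83%) and the glucocorticoid receptor motif ACANNNTGT in Lcn2 and Serpina3n (6.85%). The HNF1 motif GTTAATNAT was in 0 of the 7 and in 0.801% of all promoters. A match is a description of letters, and binding was not measured here.

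Near-identical copies limit how reads can be divided among some of these genes. Of the 75-base windows of its main transcript, Saa1 shared 4.67% with Saa2, and Saa2 shared 4.7% with Saa1. Orm1 shared 13.8% of its windows with Orm2, and Orm2 shared 14.0% with Orm1 or Orm3. Serpina3m shared 9.65% of its windows, most of them with Serpina3k, and Serpina3n shared 1.46%. Hp, Hpx, Lcn2 and Itih4 shared 0 windows with another gene. Values of the first 6 genes carry that uncertainty.

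Among the vehicle livers, levels per transcript length (TPM) ran over a wide range. Saa1 stood at 838.8 ± 787.9 TPM (SD, n = 4), Orm1 at 752.0 ± 182.8, Hpx at 636.0 ± 153.6, Saa2 at 486.4 ± 659.2 and Hp at 318.9 ± 79.9 TPM. Itih4 followed at 200.4 ± 34.7 TPM, Serpina3n at 53.8 ± 8.33, Orm2 at 22.97 ± 19.5, Serpina3m at 19.5 ± 2.43 and Lcn2 at 4.0 ± 3.32 TPM. Saa1, Orm1, Hpx and Saa2 cannot be ordered within their spread, since the SD of either Saa gene was about as large as its mean or larger. Hp and Itih4 lay above Serpina3n by more than their SDs, and Orm2 and Serpina3m could not be told apart.

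The serum amyloid A genes had the widest spread of all. Saa1 and Saa2 encode small apolipoproteins that ride on high-density lipoprotein and are the main acute phase reactants of the mouse. Saa1 stood at 686 CPM in vehicle recovery replicate 1, at 404, 48.5 and 1609 CPM in vehicle treatment replicates 1, 2 and 3, at 68.4, 71.8 and 75.4 CPM in JQ1 treatment replicates 1, 2 and 3, and at 112, 25.6 and 38.0 CPM in JQ1 recovery replicates 1, 2 and 3. Saa2, in the same order, stood at 170 CPM, at 206, 7.16 and 1227 CPM, at 17.8, 14.5 and 14.7 CPM, and at 20.0, 5.398 and 11.6 CPM. For both genes 3 of the 4 vehicle livers lay above every JQ1 liver, and vehicle treatment replicate 2 lay below all 3 JQ1 treatment livers, so the groups overlapped. The 3 JQ1 treatment livers were close together.

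In numbers, Saa2 differed 171.2-fold between the highest and the lowest vehicle liver, the widest span of 12863 genes with at least 1 CPM. Only 7 of those genes, Saa1 among them, spanned at least the 33.19-fold of Saa1. The median gene spanned 1.381-fold and the 95th percentile was 2.996-fold. In the JQ1 treatment livers Saa2 spanned 1.222-fold and Saa1 1.103-fold, against a median of 1.294-fold over 12769 genes. In the recovery livers, with the kidney mRNAs in replicates 2 and 3, Saa1 spanned 4.376-fold and Saa2 3.705-fold, against a median of 1.424-fold over 13232 genes. The span in 4 libraries is wider by construction than that in 3, and the difference between the spans was not tested.

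Saa2 also took a varying part of the reads of the pair. Its percentage of the summed Saa1 and Saa2 reads was 43.3% in vehicle treatment replicate 3, 33.7% in vehicle treatment replicate 1, 19.9% in vehicle recovery replicate 1 and 12.9% in vehicle treatment replicate 2. It lay between 16.3% and 20.6% in the JQ1 treatment livers and between 15.1% and 23.3% in the recovery livers. Among the vehicle livers the 12.9% was in the library with the lowest Saa1 level and the 43.3% in that with the highest.

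The orosomucoid genes encode alpha-1-acid glycoproteins, which bind drugs and lipids in plasma. Orm1 stood at 1106 CPM in vehicle recovery replicate 1, at 767, 576 and 1026 CPM in vehicle treatment replicates 1, 2 and 3, at 650, 722 and 689 CPM in JQ1 treatment replicates 1, 2 and 3, and at 704, 331 and 594 CPM in the 3 recovery replicates. Orm2, in the same order, stood at 33.8 CPM, at 13.3, 3.98 and 58.2 CPM, at 7.46, 8.77 and 8.28 CPM, and at 7.66, 1.96 and 5.26 CPM. Vehicle treatment replicate 2 was the lowest vehicle liver for both genes, and the groups overlapped. Orm2 spanned 14.62-fold among the vehicle livers, which 21 genes matched or passed, and Orm1 1.92-fold.

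Haptoglobin (Hp) binds free haemoglobin and hemopexin (Hpx) binds free haem, and both are cleared by the liver with their cargo. Hp stood at 989 CPM in vehicle recovery replicate 1, at 699, 493 and 894 CPM in vehicle treatment replicates 1, 2 and 3, at 570, 447 and 486 CPM in the JQ1 treatment replicates, and at 555, 287 and 446 CPM in the recovery replicates. Hpx, in the same order, stood at 2209 CPM, at 1554, 1150 and 2079 CPM, at 1712, 1638 and 1385 CPM, and at 1307, 784 and 1181 CPM. Itih4, an inter-alpha-trypsin inhibitor heavy chain, stood at 939 CPM, at 765, 515 and 1017 CPM, at 817, 722 and 639 CPM, and at 532, 316 and 431 CPM. For each of these 3 genes vehicle treatment replicate 2 was again the lowest vehicle liver, the vehicle group overlapped the JQ1 groups, and the vehicle livers spanned 1.92-fold to 2.005-fold. Of the liver reads of Itih4, 82.54% were assigned to the coding transcript Itih4-203 and 15.13% to the retained-intron transcript Itih4-205.

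The serpins Serpina3m and Serpina3n belong to the mouse family related to human antichymotrypsin and inhibit serine proteases. Serpina3m stood at 67.0 CPM in vehicle recovery replicate 1, at 59.9, 57.2 and 54.0 CPM in vehicle treatment replicates 1, 2 and 3, at 71.3, 58.2 and 61.4 CPM in JQ1 treatment replicates 1, 2 and 3, and at 37.7, 21.5 and 27.3 CPM in the recovery replicates. Serpina3n, in the same order, stood at 245 CPM, at 185, 211 and 206 CPM, at 196, 195 and 201 CPM, and at 186, 71.0 and 149 CPM. Serpina3m was below every other liver in all 3 recovery livers, and its vehicle and treatment livers overlapped. The vehicle livers were narrow for both, spanning 1.241-fold for Serpina3m and 1.324-fold for Serpina3n.

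Lcn2 encodes lipocalin 2, which withholds iron from bacteria by binding their siderophores and is made by neutrophils, macrophages and injured epithelia as well as by hepatocytes. It stood at 10.9 CPM in vehicle recovery replicate 1, at 1.52, 1.74 and 9.49 CPM in vehicle treatment replicates 1, 2 and 3, at 1.67, 1.68 and 1.79 CPM in the JQ1 treatment replicates, and at 1.45, 0.81 and 1.12 CPM in the recovery replicates. A pair of vehicle livers was high, vehicle recovery replicate 1 and vehicle treatment replicate 3, and the other pair lay at the level of the treatment livers. The vehicle span was 7.209-fold, which 73 genes matched or passed. Of 13 neutrophil markers 6 to 10 were detected in each liver, and they summed to 33.4 to 41.9 CPM in vehicle, 31.5 to 39.5 CPM at treatment and 33.5 to 59.3 CPM in recovery. The neutrophil genes S100a8 and S100a9 had reads in every liver and were highest, at 4.25 and 4.43 unscaled CPM, in vehicle recovery replicate 1, the liver with the highest Lcn2. In vehicle treatment replicate 3, the liver with the next highest Lcn2, they were at 1.94 and 2.00. S100a8 was at 3.65 in JQ1 treatment replicate 1 and 3.60 in JQ1 recovery replicate 1, where Lcn2 was low. Ly6g, another of the 13, had 0 reads in every liver. The part of neutrophils in the Lcn2 values was not tested.

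**Figure D1:**
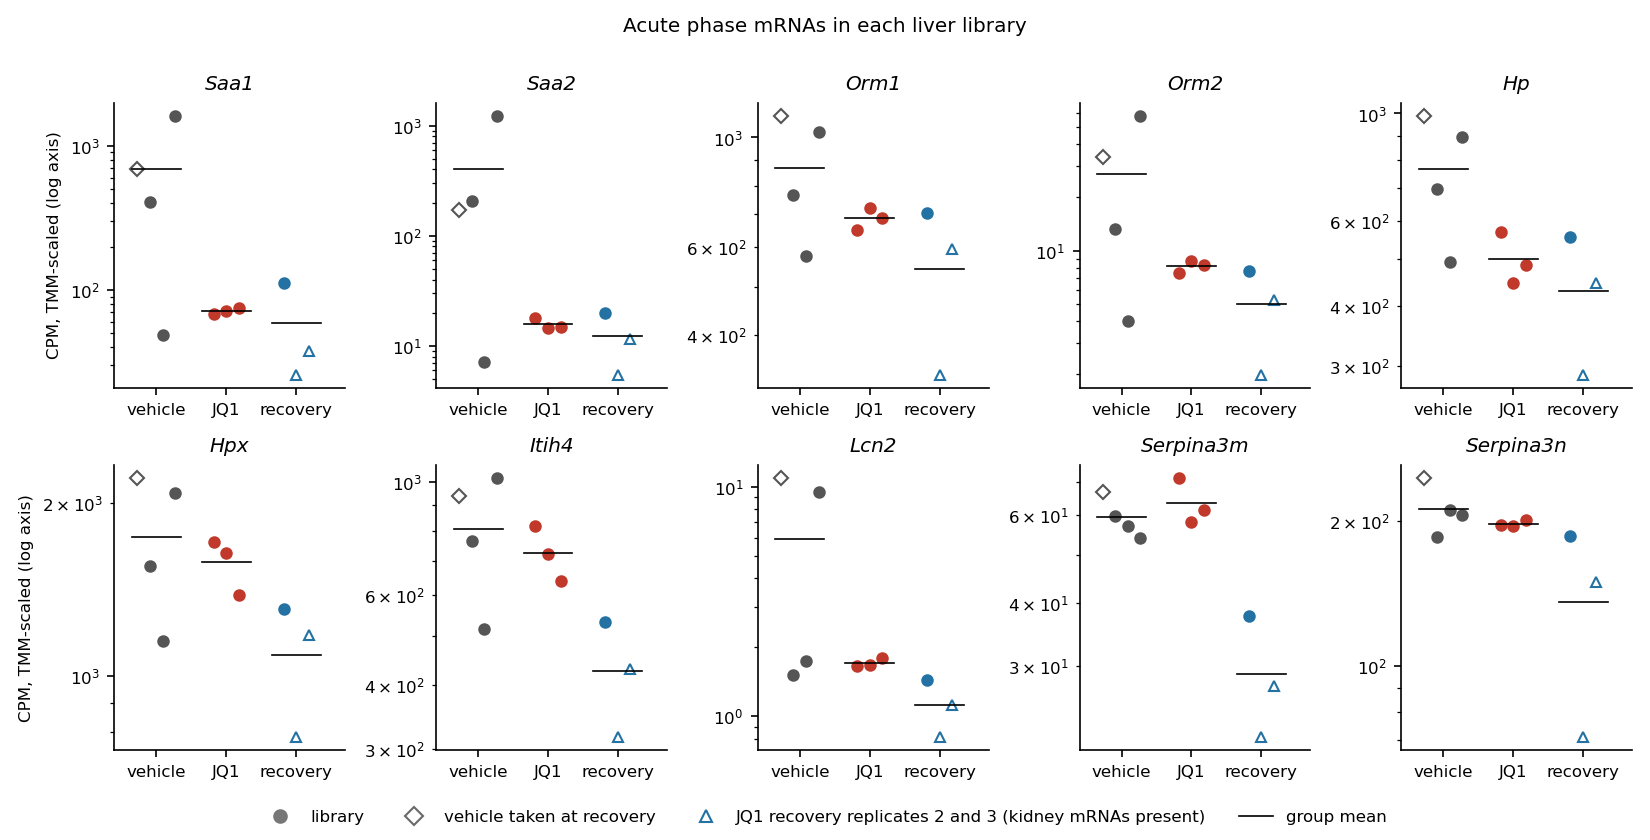
Each panel plots 1 gene in the 10 liver libraries, in CPM scaled by TMM on a log axis, with vehicle, JQ1 treatment and JQ1 recovery from left to right, open diamonds for the vehicle library of the recovery time, open triangles for JQ1 recovery replicates 2 and 3 and lines for group means. The vehicle libraries of Saa1, Saa2, Orm2 and Lcn2 are spread over 7.209-fold to 171.2-fold, the treatment libraries of every gene lie close together, and Serpina3m is below all other livers in the 3 recovery libraries.

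The same few libraries held the extremes of most genes. Vehicle treatment replicate 2 was the lowest vehicle liver for 7 of the 10 genes, vehicle treatment replicate 1 for Serpina3n and Lcn2, and vehicle treatment replicate 3 for Serpina3m. Vehicle recovery replicate 1 was the highest for 6 genes and vehicle treatment replicate 3 for the other 4. JQ1 recovery replicate 2, with most kidney mRNA, was the lowest of all 10 livers for 10 of 10 genes. On the scale of the liver-enriched genes it was the lowest for 2 of 10, Orm2 and Serpina3n.

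At the end of JQ1 treatment, 0 of the 10 genes were called different from vehicle in liver by edgeR. Over all 14559 genes tested, 72 were called (0.495%). Of the 10, 4 (Saa1, Saa2, Hp and Lcn2) had an unadjusted p below 0.05, against 9.53% of all genes. In 9 of the 10 the edgeR fit gave a log2 fold change below 0, against 49.7% of all genes, and the median was -0.48 against 0.003 over all genes. In 0 of the 10 did treatment and vehicle livers not overlap, where 6.13% of all genes were wholly lower.

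Saa2 had a mean of 402.5 ± 556.4 CPM in vehicle livers (SD, n = 4) and 15.7 ± 1.82 CPM in JQ1 treatment livers (n = 3), with a log2 fold change of -4.68 ± 1.56 (SE, adjusted p = 0.389 by edgeR's quasi-likelihood test). Saa1 went from 686.9 ± 667.8 to 71.9 ± 3.53 CPM, a log2 fold change of -3.26 ± 1.13 (adjusted p = 0.413). The log2 fold changes of Lcn2 (-1.80 ± 0.69), Orm2 (-1.75 ± 0.86) and Hp (-0.62 ± 0.26) had adjusted p-values from 0.428 to 0.596. Those of Orm1, Itih4, Hpx, Serpina3n and Serpina3m lay between -0.34 and 0.10, with adjusted p-values from 0.765 to 0.952. DESeq2 called 2 of the 10 lower, Saa1 (adjusted p = 0.0343) and Saa2 (adjusted p = 0.00646). Of all genes it called 125 of 14906 lower, and 1.72% in either direction.

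A single vehicle library set much of the size of the Saa differences. Without vehicle treatment replicate 3, which held the highest Saa levels, the log2 fold change of Saa1 was -2.40 and that of Saa2 -3.03. Without vehicle treatment replicate 2, which held the lowest, they were -3.65 and -5.09. Neither was called by edgeR when any single library was left out.

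In liver 6 weeks after the last dose, 1 of the 10 genes was called, Serpina3m, which fell. Over all genes 5 of 14559 were called (0.0343%), and 3 of them were lower (0.0206%). All 10 had an unadjusted p below 0.05 and a log2 fold change below 0, against 16.7% and 47.8% of all genes, and the median was -0.98 against 0.017. Recovery and vehicle livers did not overlap for Serpina3m and Lcn2, both lower, as for 6.13% of all genes. DESeq2 called 7 of the 10 lower, all but Orm1, Orm2 and Serpina3n. Of all genes it called 206 of 17508 lower, and 4.38% in either direction.

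Serpina3m went from 59.5 ± 5.53 CPM in vehicle livers (SD, n = 4) to 28.8 ± 8.17 CPM in recovery livers (n = 3), a log2 fold change of -1.05 ± 0.16 (SE, edgeR adjusted p = 0.0455). In recovery replicate 1, where the kidney markers were near 0, Serpina3m was at 37.7 CPM, below the lowest vehicle liver at 54.0 CPM. On the scale of the liver-enriched genes the recovery livers lay at 30.7 to 38.6 CPM, still below vehicle (48.4 to 59.7 CPM) and treatment (54.1 to 67.5 CPM), with a log2 fold change of -0.62 and an adjusted p of 0.0609. With recovery replicate 1 as the lone recovery library the edgeR log2 fold change was -0.67 (adjusted p = 0.432). The call held without recovery replicate 1 (adjusted p = 9.93e-06) or recovery replicate 2 (0.0472) and was lost when any 1 of the other 8 livers was left out (0.117 to 0.269). Summed over 11 Serpina3 genes, among which reads can be split, the log2 fold change was -0.23 (adjusted p = 0.613). Serpina3k, 1 of the 11, was at 6393 to 6613 unscaled CPM in vehicle livers, so this sum cannot show a change of Serpina3m alone.

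The other 9 genes were not called in recovery. Their log2 fold changes against vehicle were -5.03 ± 1.58 for Saa2, -3.55 ± 1.14 for Saa1, -2.47 ± 0.90 for Orm2 and -2.40 ± 0.71 for Lcn2. Those of Itih4 (-0.92 ± 0.23), Hp (-0.84 ± 0.26), Hpx (-0.68 ± 0.23), Orm1 (-0.68 ± 0.27) and Serpina3n (-0.65 ± 0.26) were smaller, and the adjusted p-values of the 9 ran from 0.129 to 0.251 by edgeR. Itih4, Hp, Hpx and Serpina3n were called by edgeR when recovery replicate 1, the library nearly free of kidney mRNA, was left out (adjusted p from 0.0127 to 0.0477), a fit in which 13.6% of all 15450 genes were called. In that fit the 15 hepatocyte markers had a median log2 fold change of -0.69 and 11 were called lower. With all 3 recovery livers their median was -0.45 and edgeR called 0. Of the 15, 9 were lower at an unadjusted p below 0.05 (7.12% of all genes) and 3 by DESeq2 (206 of 17508 genes). The part that the kidney mRNAs had in these differences was not tested for single genes. On the liver-enriched scale Lcn2 no longer lay apart from vehicle, and the median of all genes moved from 0.017 to 0.515, so values on that scale are to be read against this shift.

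Both ways of handling the 2 mixed libraries kept all 10 log2 fold changes below 0. With recovery replicate 1 as the lone recovery library, assumed to vary like the other groups, they were -4.33 for Saa2, -2.62 for Saa1, -2.05 for Lcn2 and -1.85 for Orm2. For Itih4 (-0.61), Hp (-0.47), Hpx (-0.42), Orm1 (-0.31) and Serpina3n (-0.19) they were nearer to 0, and edgeR's adjusted p was at least 0.949 for these 9. On the liver-enriched scale Saa2 was at -4.69, Saa1 at -3.25, Orm2 at -2.13 and Lcn2 at -1.98, and the other 5 lay between -0.25 and -0.49. Their adjusted p-values on that scale ran from 0.0664 (Lcn2) to 0.296 (Hpx).

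JQ1 treatment and recovery livers were compared directly as well, without the vehicle libraries entering the difference. All treatment animals were 10 weeks old and all recovery animals 16 weeks old, so age and time since JQ1 cannot be told apart here. Serpina3m was called higher at treatment, by 1.14 ± 0.17 on the log2 scale (edgeR adjusted p = 0.00788). Of all genes 2.29% were called and 1.31% were called higher. On the liver-enriched scale the difference was 0.76 (adjusted p = 0.0565), and without recovery replicates 2 and 3 it was 0.75 (adjusted p = 0.0242). Leaving out recovery replicate 3, treatment replicate 1 or treatment replicate 2 took the adjusted p to 0.0505, 0.0507 and 0.0517.

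For 5 of the 10 genes, Serpina3m, Serpina3n, Hpx, Lcn2 and Itih4, all treatment livers were above all recovery livers, against 11.3% of all genes. On the liver-enriched scale this held for 4, all but Hpx. Itih4 was 0.77 ± 0.24 higher at treatment on the log2 scale (adjusted p = 0.111 by edgeR, 0.0169 by DESeq2, which called 7.21% of all genes), Serpina3n 0.54 ± 0.27 (edgeR adjusted p = 0.322) and Hpx 0.53 ± 0.24 (0.249). Saa1 and Saa2, which differed most from vehicle, differed by 0.30 ± 1.08 and 0.35 ± 1.46 between treatment and recovery (adjusted p = 0.915 and 0.926). Treatment and recovery were each set against the same 4 vehicle libraries, so the earlier 2 comparisons are not independent.

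Saa2 had the widest range of log2 CPM over the 10 livers, 7.802, among the 9 members with a mean of at least 10 CPM. The genes whose levels followed it most closely, by the root mean square difference of log2 CPM centred on each gene's mean, were Saa1 (0.685), Orm2 (1.256), Mt2 (1.734), Mt1 (1.862) and Saa3 (1.924) among 6613 genes. A gene that did not vary at all would have a difference of 2.398 from Saa2. The likeness is a description over 10 libraries of 3 groups. In vehicle treatment replicate 2, where Saa2 was at 7.16 CPM, the metallothionein mRNAs Mt1 and Mt2 did not share its low level.

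**Figure D2:**
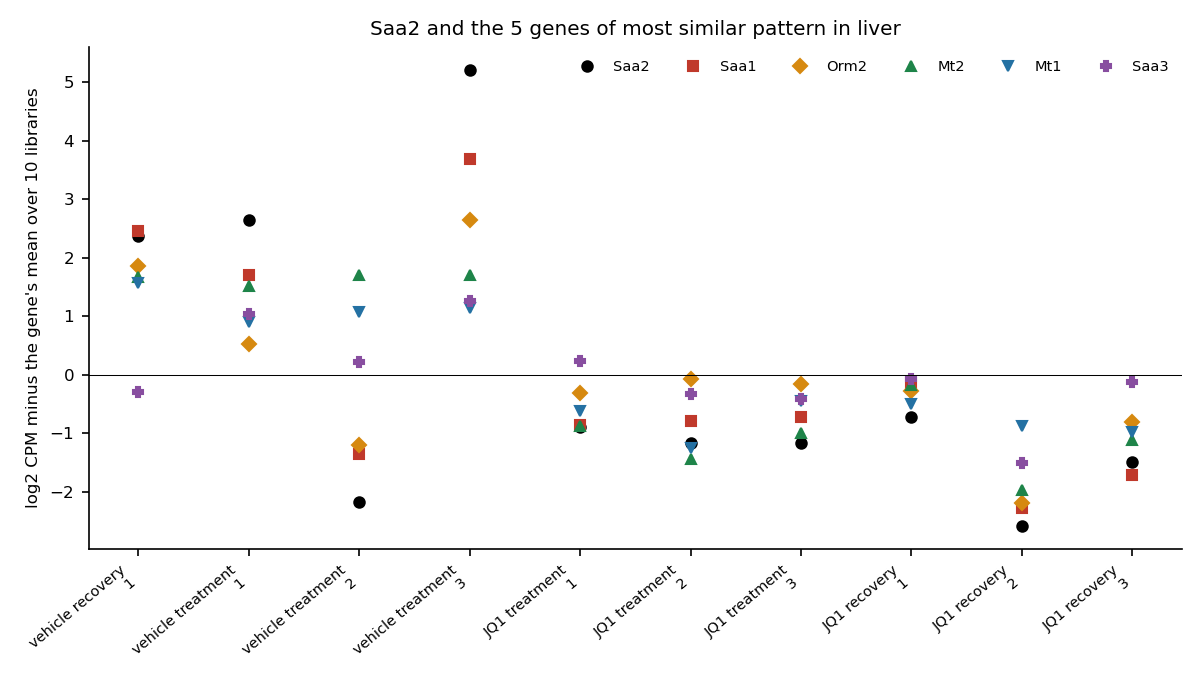
Log2 CPM minus the mean of the gene over the 10 livers is plotted by library for Saa2 and the 5 genes of most similar pattern. Saa2 runs from -2.59 in JQ1 recovery replicate 2 to 5.21 in vehicle treatment replicate 3, Saa1 and Orm2 move with it over smaller ranges, and in vehicle treatment replicate 2 Mt1 and Mt2 lie above their means while Saa2 lies below its own.

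Of 31 other positive acute phase genes, 30 were tested in liver. At the end of treatment 2 fell and 0 rose by edgeR, where 0.227% of all genes were called lower and 0.268% higher. The median log2 fold change was 0.02 against 0.003 over all genes. Both that fell were metallothioneins, small metal-binding proteins induced by zinc, glucocorticoids and interleukin 6. Mt2 went from 192.1 ± 11.5 CPM (n = 4) to 28.7 ± 5.63 CPM (n = 3), a log2 fold change of -2.74 ± 0.38 (edgeR adjusted p = 0.0311), and Mt1 from 167.7 ± 34.5 to 44.2 ± 11.98 CPM (log2 fold change -1.93 ± 0.22, adjusted p = 0.00329). In recovery Mt1 alone was called, at 43.2 ± 7.85 CPM (-1.96 ± 0.22, adjusted p = 0.0249). It was at -1.48 on the liver-enriched scale (adjusted p = 0.036) and at -1.69 with recovery replicate 1 as the lone recovery library (adjusted p = 0.838). Mt2, not called in recovery by edgeR, was at 53.7, 15.4 and 27.9 CPM in recovery replicates 1, 2 and 3, against 175.1 to 199.1 CPM in vehicle. The median of the list in recovery was -0.56, against -0.45 for the hepatocyte markers. It was -0.25 without recovery replicates 2 and 3 and -0.18 on the liver-enriched scale, where the hepatocyte markers were at -0.09 and -0.05.

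Between treatment and recovery 4 of the 30 were higher at treatment by edgeR, where 1.31% of all genes were. The complement component C3 (1.104 ± 0.21) and the protease inhibitor Serpina1a (1.25 ± 0.28) were called as well without recovery replicates 2 and 3 (0.72 and 0.90, adjusted p = 0.0205 and 0.00199) and on the liver-enriched scale (0.76 and 0.94, adjusted p = 0.0156 and 0.00905). The fibrinogen chain Fgg (0.95 ± 0.23) and the mannose-binding lectin Mbl2 (0.58 ± 0.14) were not, with 0.59 and 0.28 without those libraries (adjusted p = 0.249 and 0.451) and 0.60 and 0.18 on that scale (adjusted p = 0.0633 and 0.431). Serpina1a has near-identical copies and its reads are uncertain. The 15 hepatocyte markers were also higher at treatment, by a median of 0.64. Of these, edgeR called 1 higher and DESeq2 7 (493 of 16986 genes), and 10 were higher at an unadjusted p below 0.05 (8.62% of all genes). The median of these markers was 0.21 without recovery replicates 2 and 3 and 0.27 on the liver-enriched scale. The part of the kidney mRNAs in these differences was not tested for single genes.

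Among the upstream signals, Il6 had 0 reads in every liver. Of 16 cytokine and receptor genes 10 were tested, and edgeR called 0 at treatment and 0 in recovery, with 1 and 3 at an unadjusted p below 0.05 (9.53% and 16.7% of all genes) and 0 and 1 called by DESeq2 (1.72% and 4.38%). Il1b was at 2.33 ± 1.09 CPM in vehicle (n = 4), 0.939 ± 0.221 CPM at treatment (n = 3) and 0.947 ± 0.378 CPM in recovery (n = 3). Of 18 transcription factors and feedback genes all 18 were tested, and edgeR called 0 in both comparisons, with 1 and 4 at an unadjusted p below 0.05 and 1 and 0 called by DESeq2. Stat3 was at 179.0 ± 52.8, 209.9 ± 19.0 and 154.6 ± 34.2 CPM, and its target Socs3 at 3.70 ± 2.29, 5.06 ± 0.61 and 3.42 ± 2.07 CPM, in vehicle, treatment and recovery. The macrophage markers, 11 of 11 detected in each liver, summed to 161.8 to 257.6 CPM in vehicle, 167.1 to 232.5 CPM at treatment and 106.9 to 189.6 CPM in recovery. In recovery against vehicle, edgeR also called 0 of the cytokine, transcription factor and macrophage genes without recovery replicates 2 and 3 and on the liver-enriched scale.

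Of 12 negative acute phase genes, which hepatocytes reduce during inflammation, edgeR called 0 against vehicle at treatment and 0 in recovery. At treatment 3 had an unadjusted p below 0.05 (9.53% of all genes), DESeq2 called 2 (1.72%), and the median log2 fold change was 0.25. In recovery 10 were lower at an unadjusted p below 0.05 (7.12% of all genes were), DESeq2 called 4 of the 12 lower (4.38% of all genes were called in either direction), and the median was -0.48 against 0.017 over all genes. The hepatocyte markers, of which Ttr is one and is also on this list, had a median of -0.45 there. Without recovery replicates 2 and 3 the median of the negative acute phase genes was -0.18 with 3 lower at an unadjusted p below 0.05, and on the liver-enriched scale it was -0.10 with 2 lower, and edgeR called 0 both times.

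Between treatment and recovery, transferrin (Trf) and transthyretin (Ttr) were higher at treatment by 1.15 ± 0.20 and 1.13 ± 0.25 on the log2 scale (edgeR adjusted p = 0.0146 and 0.0303). Without recovery replicates 2 and 3 the differences were 0.83 and 0.80 (adjusted p = 0.00253 and 0.0043), and on the liver-enriched scale, where the median of all genes was -0.47, they were 0.79 and 0.80 (adjusted p = 0.00506 and 0.00838). By edgeR 0 of 11 receptors and clearance genes were called in both comparisons with vehicle. At treatment 4 had an unadjusted p below 0.05 (9.53% of all genes), all lower, and DESeq2 called 0 (1.72%). In recovery 6 had such a p (16.7%), 2 higher and 4 lower, and DESeq2 called 1 higher and 2 lower (4.38% in either direction). In recovery 0 were called without recovery replicates 2 and 3 or on the liver-enriched scale.

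In kidney the same mRNAs were at the edge of detection, and liver exceeded kidney in vehicle mice for all 10 (edgeR adjusted p from 4.12e-11 to 0.00586), where 61.8% of 17710 genes were called between the organs and 29.6% were higher in liver. DESeq2 called all 10 as well, with 51.4% of all genes. Over the 4 pooled vehicle libraries of each organ, the liver level was 6240 times the kidney level for Saa1, 3210 times for Hpx, 2170 times for Itih4, 510 times for Orm1, 380 times for Hp and 189 times for Serpina3n. Lcn2 was the exception at 4.09 times, and 68 of its 107 kidney reads were from vehicle treatment replicate 2, without which the ratio was 8.66. The liver side was uneven as well. Scaled within each organ, Lcn2 ran from 1.52 to 10.95 CPM in vehicle livers and 0.578 to 4.25 in vehicle kidneys, which overlapped. Among the vehicle livers Saa1 spanned 33.19-fold and Saa2 171.2-fold. These ratios were not computed with a vehicle liver left out. Vehicle recovery replicate 1 held most kidney reads of several genes, 7 of 8 of Saa1, 23 of 38 of Hpx, 16 of 26 of Itih4 and 526 of 775 of albumin (Alb). Without it liver was at 5970 times the kidney level for Hpx and 4130 times for Itih4, and 1 read of Saa1 was left. For Orm1 the ratio was 824 without vehicle treatment replicate 3, which held 68 of its 119 reads, while those of Hp and Serpina3n stayed within 343 to 442 and 187 to 191 whichever vehicle kidney was left out. Orm2 and Serpina3m had 0 reads in the vehicle kidneys, and with 3 reads over the group as the floor liver was at least 665-fold and at least 1350-fold higher. Saa2 had 1 read in the vehicle kidneys, a ratio of 29300 with a 95% counting interval of 5250 to 1160000. Such intervals and floors cover counting error only.

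Seen from the kidney, Lcn2 stood at 24.5% of its liver level (11.5% without vehicle treatment replicate 2), Serpina3n at 0.529%, Hp at 0.263%, Orm1 at 0.196%, Itih4 at 0.0462%, Hpx at 0.0311% and Saa1 at 0.016%. The liver pools behind the percentages of Lcn2 and Saa1 were uneven, as given above, and no vehicle liver was left out. For comparison, Alb stood at 0.0278%, Ttr at 0.0289% and Ahsg at 0.02%, and the median of 14 hepatocyte markers was 0.102%. Without vehicle recovery replicate 1 Itih4 was at 0.0242%, Hpx at 0.0167% and Alb at 0.0122%, and the median of the 13 hepatocyte markers with more than 3 kidney reads was 0.179%. In bulk tissue fewer cells of a type and less RNA per cell cannot be told apart.

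**Figure D3:**
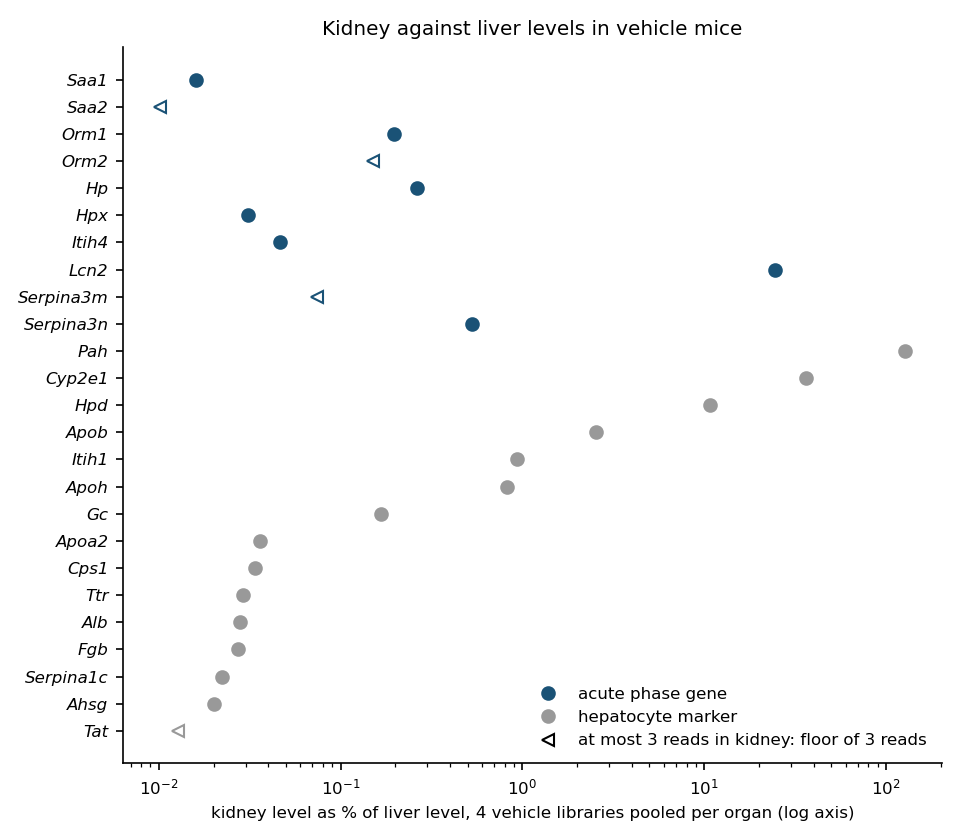
The kidney level of each gene as a percentage of its liver level, pooled over 4 vehicle libraries per organ, is plotted on a log axis for the 10 acute phase genes and the hepatocyte markers, with arrows at the floor of 3 reads for genes with at most 3 kidney reads. Lcn2 is at 24.5%, a value that is 11.5% without vehicle treatment replicate 2, and Serpina3n, Hp and Orm1 lie between 0.196% and 0.529%. The vehicle livers behind the Lcn2 value spanned 7.209-fold.

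Of the 10 genes, 6 passed the count filter in kidney (Orm1, Hp, Hpx, Serpina3n, Lcn2 and Itih4). Over all libraries of a group, Saa1 had 8 reads in vehicle, 11 at treatment and 10 in recovery. Saa2 had 1, 1 and 0 reads, Orm2 had 0, 0 and 1, and Serpina3m had 0, 4 and 0, all 4 in JQ1 treatment replicate 1. In a single kidney library 3 reads amounted to 0.112 to 0.215 CPM.

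Serpina3n stood at 1.05 CPM in vehicle recovery replicate 1, at 1.03, 1.12 and 1.09 CPM in vehicle treatment replicates 1, 2 and 3, at 6.33, 0.224 and 0.706 CPM in JQ1 treatment replicates 1, 2 and 3, and at 0, 0 and 0.0572 CPM in JQ1 recovery replicates 1, 2 and 3. The vehicle kidneys were close together, the treatment kidneys fell on both sides of them, and the recovery kidneys were below all others. Hp stood at 1.37 CPM, at 1.59, 2.19 and 2.59 CPM, at 30.7, 0.635 and 3.47 CPM, and at 0.871, 0.961 and 0.629 CPM in the same order. Its recovery kidneys were below all 4 vehicle kidneys, and JQ1 treatment replicate 1 was far above the rest.

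Lcn2 in kidney stood at 0.578 CPM in vehicle recovery replicate 1, at 0.828, 4.25 and 0.726 CPM in vehicle treatment replicates 1, 2 and 3, at 3.69, 0.598 and 0.706 CPM in the JQ1 treatment replicates, and at 0.116, 0.640 and 0.172 CPM in the recovery replicates. Vehicle treatment replicate 2 and JQ1 treatment replicate 1 were the high kidneys, and the groups overlapped. The 8 tubular injury genes, all detected in every kidney, summed to 384.8 CPM in JQ1 treatment replicate 1 and 380.4 CPM in vehicle treatment replicate 2. In the other kidneys they summed to 241.2 to 330.7 CPM. The tubular injury gene Havcr1 was high in only 1 of these 2 kidneys. Its level was 4.793 unscaled CPM in vehicle treatment replicate 2 but 1.102 in JQ1 treatment replicate 1, against 0.8601 to 2.375 in the other kidneys. The part of the tubular injury genes in the Lcn2 values was not tested. Orm1 stood at 0.998 CPM, at 1.03, 1.06 and 3.08 CPM, at 2.09, 0.822 and 1.29 CPM, and at 1.16, 0.267 and 0.229 CPM in the same order. Hpx lay between 0.125 and 1.21 CPM and Itih4 between 0 and 1.25 CPM in all 10 kidneys.

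**Figure D4:**
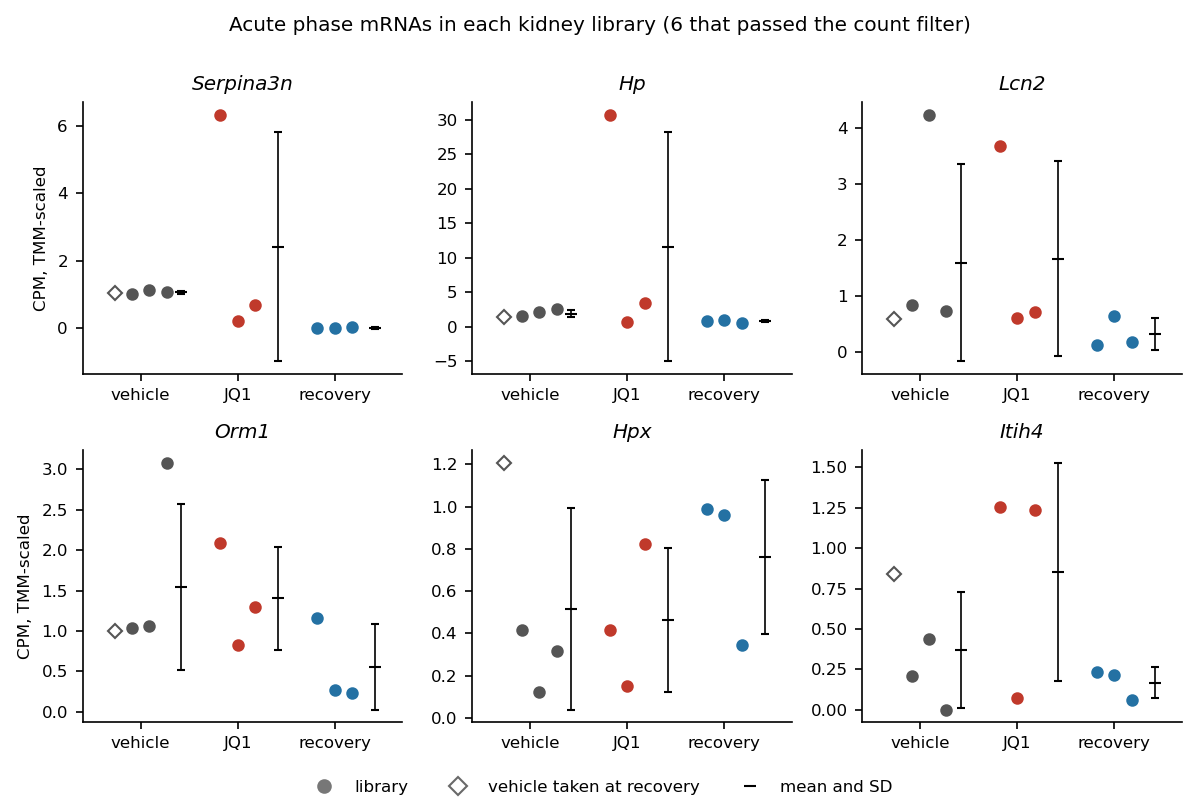
Each panel plots 1 of the 6 genes that passed the count filter in the 10 kidney libraries, in CPM scaled by TMM, with vehicle, JQ1 treatment and JQ1 recovery from left to right, an open diamond for the vehicle library of the recovery time, and the mean and SD of each group. JQ1 treatment replicate 1 is the highest kidney for Hp at 30.7 CPM and for Serpina3n at 6.33 CPM, and Serpina3n is at or near 0 in the recovery kidneys.

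At the end of JQ1 treatment edgeR called 0 of the 6 genes in kidney, where 4.13% of 17158 genes were called. None of the 6 had an unadjusted p below 0.05 (17.1% of all genes did), DESeq2 called 0 (5.74% of all genes), and adjusted p-values ran from 0.303 to 0.994. Hp had a mean of 1.93 ± 0.56 CPM in vehicle (SD, n = 4) and 11.6 ± 16.6 CPM at treatment (n = 3), with a log2 fold change of 2.54 ± 1.1 (adjusted p = 0.303). Without JQ1 treatment replicate 1 its log2 fold change was 0.03. Serpina3n had a log2 fold change of 1.11 ± 0.87 (adjusted p = 0.585), which was -1.27 without that library.

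JQ1 treatment replicate 1 of the kidney stood apart in other genes too. Its adipocyte markers, 9 of 9 detected as in every kidney, summed to 418.2 CPM against 68.5 to 198.0 CPM in the other kidneys, and its macrophage markers to 113.7 CPM against 38.0 to 65.9 CPM. The adipocyte gene Adipoq was at 33.5 unscaled CPM against at most 10.3, and the macrophage gene C1qa at 20.0 against at most 6.56. Saa3, a further serum amyloid A gene, which had reads in every liver as well, was at 23.9 against at most 7.51. Over the whole treatment group, edgeR called 0 of 6 macrophage markers higher than vehicle and 1 lower (1.4% and 2.73% of all genes). That was Csf1r, at 17.5 ± 4.23 CPM (n = 3) against 25.3 ± 2.14 CPM (n = 4, log2 fold change -0.54 ± 0.13, edgeR adjusted p = 0.0273). Adipocytes express Hp, Lcn2 and Serpina3 genes. The part of adipocytes and macrophages in the values of JQ1 treatment replicate 1 was not tested.

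In kidney recovery edgeR called 0 of the 6 against vehicle, where 0.00583% of all genes were called. Serpina3n and Orm1 had an unadjusted p below 0.05, against 9.16% of all genes. Of the 6, DESeq2 gave 1 an adjusted p, and it called 0 (0.977% of all genes). Serpina3n and Hp did not overlap with vehicle and were lower, as were 5.2% of all genes. Serpina3n had 77 reads in the 4 vehicle kidneys and 1 read in the 3 recovery kidneys, a ratio of pooled levels of 58.7 with a 95% counting interval of 10.2 to 2350 (edgeR adjusted p = 0.368). Its adjusted p was 0.0145 where the 2 groups were fitted alone and 0.022 where JQ1 treatment replicate 1 was left out. Summed over 11 Serpina3 genes, among which reads can be split, the log2 fold change between recovery and vehicle was -0.26 (adjusted p = 0.773). That sum is a value of the 11 genes together and not of Serpina3n alone. Orm1 had a log2 fold change of -1.51 ± 0.60 (adjusted p = 0.462).

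Between treatment and recovery 1 of the 6 was called in kidney, Serpina3n, higher at treatment (edgeR adjusted p = 0.0374), against 7.31% of all genes called and 2.41% called higher. It was also the 1 gene of the 6 whose groups did not overlap (12.5% of all genes were wholly higher). The ratio of pooled levels was 96.5 with a 95% counting interval of 17.0 to 3840, on 109 reads against 1. The call was lost without any single recovery library (adjusted p from 0.144 to 0.158) and without any single vehicle library (0.053 to 0.0618), and it was kept without any single treatment library. For the 11 Serpina3 genes together, and not Serpina3n alone, the log2 fold change was 0.09 (adjusted p = 0.87). Hp differed by 3.78 ± 1.35 on the log2 scale (adjusted p = 0.158 by edgeR, 0.00836 by DESeq2, which called 9.19% of all genes), and by 1.26 without JQ1 treatment replicate 1 (edgeR adjusted p = 0.225).

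The effect of JQ1 was compared between the organs in a fit over all 20 libraries. For treatment, edgeR called 0 of the 10 genes different between organs (0.169% of 17710 genes), with Hp alone at an unadjusted p below 0.05 (7.74% of all genes), and DESeq2 called 0 (0.746% of all genes). The treatment effect on Hp was 3.15 ± 1.09 higher in kidney than in liver on the log2 scale (adjusted p = 0.47), and 0.61 higher without JQ1 treatment replicate 1 of the kidney (adjusted p = 0.989). For recovery, edgeR called 0 (4.29% of all genes), with Serpina3n alone at an unadjusted p below 0.05 (18.0% of all genes), and DESeq2 called 1, Serpina3n (adjusted p = 0.0203), among 7.87% of all genes. The kidney recovery level of Serpina3n in that difference rests on 1 read.

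Other acute phase genes were better measured in kidney than the 10 described here. Of 31 others 20 were tested, and at the end of treatment 1 rose and 2 fell by edgeR. Of all genes 1.4% were called higher and 2.73% lower. The complement factor Cfb went from 237.9 ± 32.6 CPM in vehicle (n = 4) to 119.6 ± 11.3 CPM (n = 3), with a log2 fold change of -0.99 ± 0.10 (edgeR adjusted p = 1.42e-05). Agt, the precursor of angiotensin, fell from 13.1 ± 1.61 to 5.06 ± 2.40 CPM (log2 fold change -1.34 ± 0.25, adjusted p = 0.00823). The copper carrier ceruloplasmin (Cp) rose from 79.5 ± 7.68 to 110.6 ± 21.8 CPM (0.48 ± 0.11, adjusted p = 0.0292). In recovery edgeR called 0 of the 20 (0.00583% of all genes), with 3 at an unadjusted p below 0.05 (9.16%) and 0 called by DESeq2 (0.977%). Of the upstream genes tested in kidney, edgeR called 1 of 9 cytokine and receptor genes and 3 of 17 transcription factor and feedback genes at the end of treatment, where 4.13% of all genes were called. Il11ra1 (-0.32 ± 0.09), Nfkbia (-0.35 ± 0.09) and Nfkb2 (-0.65 ± 0.18) fell and Jak1 rose (0.33 ± 0.08).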

How the data were processed

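RNA of 10 kidney and 10 liver libraries was enriched for poly(A) and sequenced as single-end 75-base reads on an Illumina NextSeq instrument. The authors used fastp 0.20.1 for trimming and Salmon 1.10.0, with an mm10 GENCODE transcriptome, for quantification. For each of 147833 transcripts the deposited files give the estimated count of reads and the TPM (a level scaled for transcript length and depth), made by the authors. Salmon divides reads that match several transcripts by a model, which affects the Saa, Orm and Serpina3 genes.

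Estimated counts were summed per gene, rounded to whole numbers and tested in 1 fit per organ (R 4.3.3, edgeR 4.0.16, TMM, quasi-likelihood F-test, filterByExpr with a minimum count of 10 and a total of 15), which kept 14559 genes in liver and 17158 in kidney. The study itself used DESeq2 on length-scaled counts, which was tried as an alternative (DESeq2 1.42.0). SE was taken as the size of the log2 fold change over the square root of F. Organs were compared in a fit over all 20 libraries (17710 genes), and levels summed over marker genes are CPM without TMM factors. The edgeR fit was tried on simulated liver counts with known changes.

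The 10 genes and the other gene lists were chosen with earlier results of these data known. Values are given for all 10 genes. Of the other lists, genes past an adjusted p of 0.05 against vehicle are named, at most 6 per list and comparison, with counts for the rest. The genes most like a member are the 5 of at least 10 CPM with the smallest difference from the member of widest range (log2 of CPM + 0.1), and none was eligible in kidney. Genes named outside this rule (Il6, Il1b, Stat3, Socs3, S100a8, S100a9, Adipoq, C1qa, Saa3, Alb, Ttr, Ahsg, Trf, Ly6g, C3, Serpina1a, Fgg, Mbl2, Serpina3k and Havcr1) were chosen after their values were seen. Alternatives were DESeq2 size factors, no filter on low counts, DESeq2, length-scaled counts, a block for the replicate number, summed near-identical copies, fits of the 2 groups alone, vehicle of the same time alone, leaving out libraries and, chosen after the data were seen, scaling on liver-enriched genes, the gene lists without the mixed livers, and organ ratios without each vehicle kidney. No pair of libraries held identical counts.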

Additional observations from a re-analysis of the deposited data

Results flagged for a closer look

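In 3 of 14 pairs of organ and gene, 1 of the 4 vehicle libraries lay far from the other 3, by Dixon's ratio of the gap to the range. Chance flags about 1 group in 20. Saa2 was at 1227 CPM in vehicle treatment replicate 3 of the liver. Lcn2 was at 4.25 CPM in vehicle treatment replicate 2 of the kidney, where its other vehicle values were 0.578 to 0.828 CPM. Orm1 was at 3.08 CPM in vehicle treatment replicate 3 of the kidney, where its other vehicle values were 0.998 to 1.06 CPM.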

How the results depend on the processing

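Of the 10 genes, edgeR called 0 (liver treatment), 1 (liver recovery) and 1 (liver treatment against recovery), and in kidney 0, 0 and 1. DESeq2 called 2, 7 and 2 in liver, on length-scaled counts 2, 6 and 2, and 2 and then 3 between kidney treatment and recovery, and it called 1 for the organ difference in recovery. In liver recovery 0 were called with length-scaled counts in edgeR, summed copies, the 2 groups fitted alone, vehicle of the same time, without recovery replicates 2 and 3, or on the liver-enriched scale. Between liver treatment and recovery 0 were called with summed copies, 2 groups alone or the liver-enriched scale, and in kidney with no filter, summed copies or 2 groups alone. Against kidney recovery, 1 was called with 2 groups alone. With 1 library left out, counts ran from 0 to 5 (liver recovery), 0 to 2 (treatment against recovery, each organ) and 0 to 1 (kidney recovery, organ difference in recovery). They stayed at 0 for treatment in both organs and at 10 between organs.

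In treatment against vehicle, Serpina3n reversed to -1.268 in kidney without JQ1 treatment replicate 1, in a leave-one-out range of -1.268 to 1.689. With copies summed, the 11 Serpina3 genes together were at -0.172 in kidney and 0.478 in liver. These are counted below as reversals of Serpina3n, though they are not values of that gene alone. Of 360 log2 fold changes with 1 library left out, 333 kept direction and call, 18 lost and 8 gained a call and 1 reversed. Of 340 under other alternatives 306 kept both, 11 lost and 21 gained a call and 2 reversed. The cause was not tested.

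A replicate block left the members' counts as they were (0, 1 and 1 in liver, 0, 0 and 1 in kidney). Over 18 same-numbered pairs from different groups of 1 organ, correlations of the deviations from group means ran from -0.199 to 0.17. No correlation was computed between liver and kidney libraries of the same number, so these values cannot decide whether such libraries shared an animal.

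Over all genes, calls depended on the method: 72, 5 and 334 in liver (treatment, recovery, treatment against recovery) were 257, 766 and 1225 by DESeq2, 235, 604 and 1070 on length-scaled counts with it, 37, 2 and 165 with those counts in edgeR, 128, 226 and 609 with no filter, 41, 2 and 222 with the block, and 368, 1 and 33 for 2 groups alone. The liver-enriched scale gave 46, 4 and 199, with 13 higher and 186 lower at treatment against recovery (190 and 144 before) and 9 and 37 at treatment (39 and 33 before), and moved the median of all genes from 0.003 to 0.045, from 0.017 to 0.515 and from -0.019 to -0.474. Kidney calls of 709, 1 and 1255 became 1009, 112 and 1616 by DESeq2, 1084, 182 and 1744 with no filter, and 432, 0 and 861 with length-scaled counts. Leaving out 1 library, liver calls ran from 15 to 271, 0 to 2107 (the highest without recovery replicate 1) and 17 to 2154, and kidney calls from 411 to 756, 0 to 240 and 675 to 1525.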

Other observations

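Red cell genes, whose haemoglobin and haem are the cargo of Hp and Hpx, were measured in the kidneys taken when JQ1 dosing ended. Of 6 tested, 3 rose against vehicle by edgeR and 0 fell, where 1.4% of all genes were called higher and 2.73% lower. Their median log2 fold change was 0.75 against -0.007 over all genes. The globin gene Hbb-bt went from 236.0 ± 34.6 CPM (SD, n = 4) to 447.9 ± 126 CPM (n = 3, adjusted p = 0.0321), and Alas2, the first enzyme of haem synthesis in red cells, from 15.9 ± 5.37 to 31.7 ± 4.38 CPM (adjusted p = 0.0495). Globin genes have near-identical copies and are uncertain one by one.

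Of 7 tubular injury genes tested in kidney, 2 fell at the end of treatment and 0 rose by edgeR, where 2.73% of all genes were called lower and 1.4% higher. The cell cycle inhibitor Cdkn1a fell from 20.7 ± 5.38 to 12.8 ± 0.87 CPM (log2 fold change -0.69 ± 0.16, edgeR adjusted p = 0.0188). The transcription factor Sox9 fell from 2.39 ± 0.95 to 0.896 ± 0.070 CPM (-1.39 ± 0.36, edgeR adjusted p = 0.0371). Among the vehicle livers, other acute phase genes varied to unequal degrees. Crp lay between 188.6 and 273.4 CPM, Apcs between 163.3 and 299.1 CPM, Saa4 between 122.4 and 341.7 CPM, and Fgl1 between 181.1 and 963.3 CPM. The genes in these paragraphs were chosen after their values were seen.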
